A study of Homo sapiens with 6 samples.

Results

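Nuclear pore and nuclear transport genes were read from a table of messenger RNA levels in SNU-668 (a line established from a human stomach cancer), in a subline resistant to erastin. Erastin keeps cystine out of cells and so triggers ferroptosis, a cell death that needs iron. Members were chosen by gene symbol: nucleoporins written NUP and a number, importins and karyopherins (KPNA, KPNB, IPO), transportins (TNPO), exportins (XPO and CSE1L), and RAN, RCC1, RANGAP1 and the RANBP genes. They numbered 54 of the 11314 protein-coding genes listed. The 6 libraries were 3 titled SPIN1 and 3 titled NC, and the treatment text names shRNA-SPIN1 and shRNA-NC, transfected into the same resistant cells. The genotype entries contradict the titles, where wild type stands on the SPIN1-titled samples and knockdown on the NC-titled ones, and the design text names ALKBH3. All 6 titles also begin with RLS3, which no label explains. Grouping here follows the titles. The words "higher" and "lower" are said of the titled SPIN1 libraries relative to the titled NC ones. Whether replicates were separate cultures is not labelled: p-values here weigh only differences among these samples, and that spread may be technical.

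The nuclear pore is a ring-shaped channel through the nuclear envelope. Outer rings of Y-shaped complexes and an inner ring form its scaffold, nucleoporins rich in phenylalanine and glycine fill the channel, and filaments and a basket stand on the cytoplasmic and nuclear faces. Importins bind cargo in the cytoplasm and release it in the nucleus when they meet Ran loaded with GTP, whereas exportins bind cargo together with Ran-GTP and release it in the cytoplasm. RCC1 loads Ran with GTP on chromatin, and RANGAP1 with RANBP1 or RANBP2 sets off its hydrolysis in the cytoplasm, so the gradient of Ran-GTP gives transport its direction.

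The importin alpha gene KPNA2 had the largest increase on the log2 scale among the members, and the transfer RNA exporter XPOT was the member called lower. KPNA2 stood at 93.9 ± 9.71 against 36.0 ± 3.37 FPKM (a fragment count per length of the gene, scaled to mapped fragments; mean ± SD, n = 3 each), 2.61-fold higher. CSE1L, the exportin that returns importin alpha to the cytoplasm, was 1.76-fold higher, and RANBP1, the co-activator of Ran-GTP hydrolysis, 1.71-fold higher. XPOT was 2.58-fold lower. Among nucleoporins, the called genes lay mainly in the inner ring (4 of 5) and the Y complex (3 of 7). Over all genes tested, 17.3% were called higher.

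Of the 54 members, 53 had a mean of at least 0.5 FPKM over the 6 libraries and were tested on log2(FPKM + 1) with limma, adjusted by Benjamini-Hochberg over 11061 genes. The exception was KPNA5, an importin alpha, at 0.551 ± 0.0628 FPKM in libraries titled NC and 0.404 ± 0.0482 in those titled SPIN1. At an adjusted p under 0.05, 16 members were higher, 1 was lower and 36 were not past the threshold. Over all genes tested, 27.6% were called, and 17.3% were higher and 10.3% lower, against 30.2% and 1.89% of the members. The groups of 3 libraries did not overlap for 22 members with higher and 5 with lower values in the libraries titled SPIN1, where 27.2% and 18.8% of all tested genes were so placed. The median log2 difference was 0.16 over the tested members and 0.05 over all genes tested. Of the 17 called members, 9 kept their call whichever of the 6 libraries was left out: KPNA2, XPOT, RANBP1, CSE1L, NUP85, NUP93, NUP62, NUP107 and RANBP6.

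**Figure D1:**
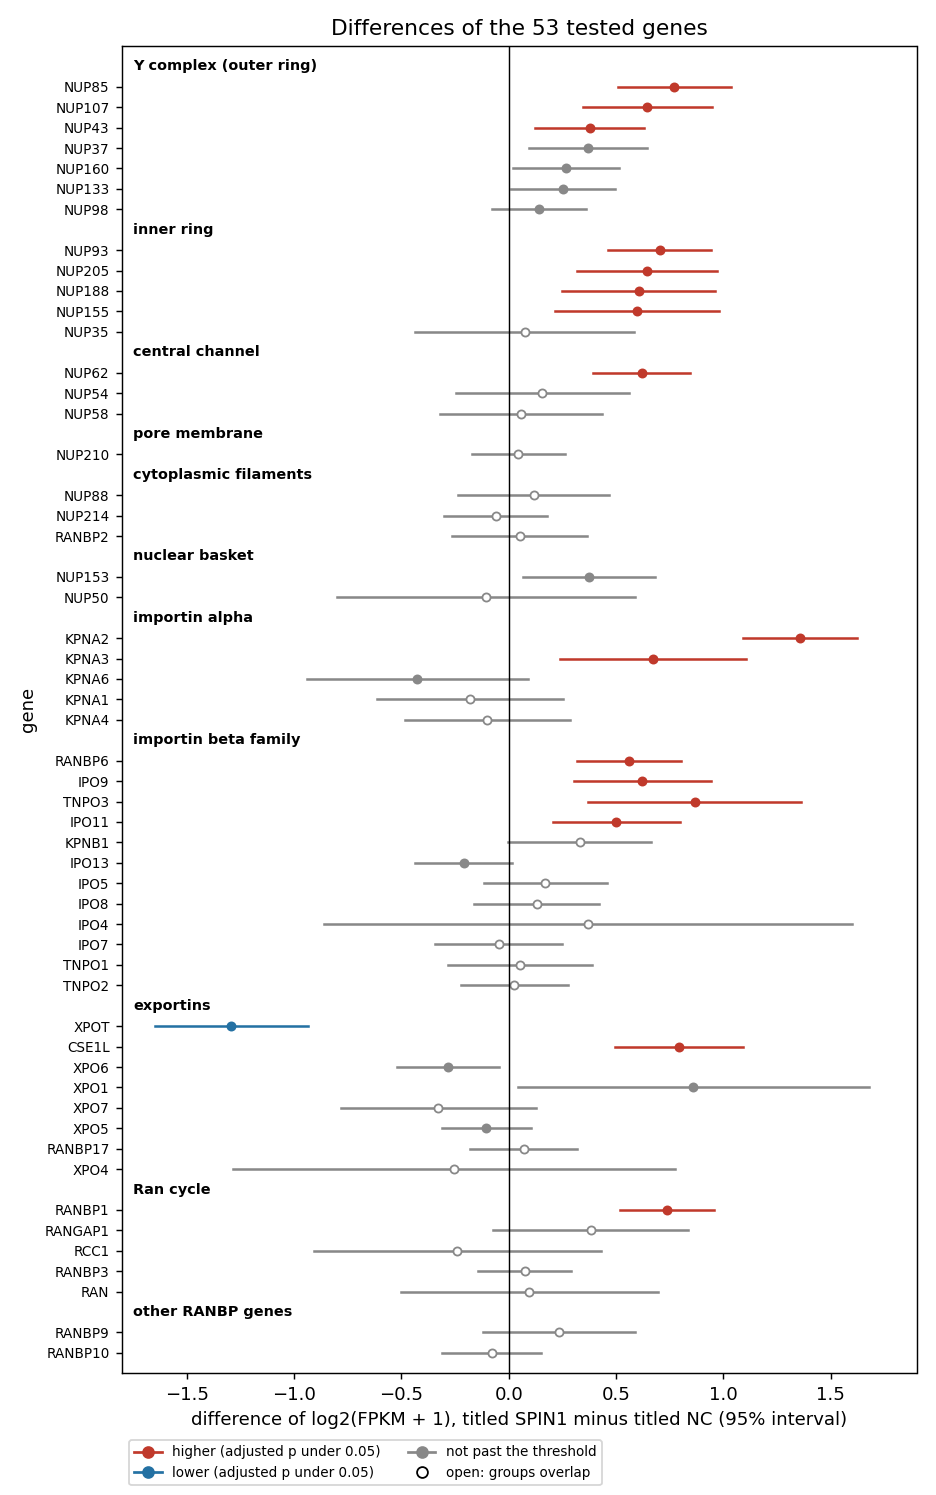
Difference of log2(FPKM + 1), titled SPIN1 minus titled NC, for the 53 tested genes, with limma's 95% interval, by role in the pore or in transport. Red genes were called higher, blue lower and grey not past the threshold, and open points mark groups that overlapped. KPNA2 (1.36) and XPOT (-1.29) lay at the ends, and the 16 higher genes were spread over the rings, the channel, the importins, CSE1L and RANBP1.

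The library titled SPIN1 replicate 3 was the highest of its group for 46 of the 53 tested members, against 45.8% of all tested genes, and titled NC replicate 1 was the lowest of its group for 38, against 45.5%. Their part in the results was not tested. The mean deviation over all members, on the log2 scale, was 0.28 for titled SPIN1 replicate 3 and -0.00 and 0.06 for replicates 1 and 2, against -0.18 to -0.05 for the libraries titled NC. Without titled SPIN1 replicate 3, 11 of the 17 calls remained, and without titled NC replicate 1, 10 remained. Dropping replicate 2 of either group also left 10 calls. Fits lacking replicate 3 of the NC group kept 12, and those lacking replicate 1 of the SPIN1 group kept 16. Such fits have fewer libraries, so their call counts do not measure the part of any library. The median log2 difference of the tested members was 0.10 without titled SPIN1 replicate 3 and 0.12 without titled NC replicate 1. It was 0.16 with all 6 libraries and 0.17 to 0.23 without any other library. SPIN1 itself, the labelled target and a reader of histone marks, was at 0.322, 6.18 and 7.97 FPKM in the titled NC libraries and at 0.324, 0.629 and 2.49 in those titled SPIN1. The groups overlapped (limma adjusted p = 0.307; exact permutation p = 0.4, two-sided, where the smallest possible is 0.1), so SPIN1 did not check the labels. It was lower past the threshold without titled NC replicate 1 (log2 difference -2.03, limma adjusted p = 0.0302) and with weights per library (-1.87, adjusted p = 0.0248). Those weights were 0.486, 3.12 and 1.17 for titled NC replicates 1 to 3 and 0.314, 3.57 and 0.503 for the libraries titled SPIN1. The weighted fit therefore rested mainly on replicate 2 of each group, here and for every gene below. ALKBH3, the gene of the design text, overlapped as well, at 12.1 ± 2.27 FPKM in libraries titled NC and 10.1 ± 2.54 in those titled SPIN1 (limma adjusted p = 0.381). Of the epithelial markers, KRT18 stood at 71.6 ± 7.38 FPKM in libraries titled NC and 117 ± 30.3 in those titled SPIN1. KRT8 stood at 29.5 ± 4.59 and 66.3 ± 21.2, and both keratins were called higher (limma adjusted p = 0.0399 for KRT18 and 0.0153 for KRT8). Leaving out 1 library ended the KRT18 call in 4 of 6 fits and the KRT8 call without titled NC replicate 3 (adjusted p = 0.0509). EPCAM was at 0.600 ± 0.253 and 1.05 ± 0.355, and CDH1 and KRT19 were not among the genes listed. Of 8 markers of other cell types the table listed 2, CD68 and DCN. CD68 was at 149 ± 6.24 FPKM in libraries titled NC and 113 ± 31.7 in those titled SPIN1 and did not pass (limma adjusted p = 0.169). DCN was at 1.86 ± 0.312 and 4.55 ± 1.10 and was called higher. All libraries were labelled as the 1 line SNU-668, and which cells gave these transcripts was not tested. In bulk RNA a change in the share of cells cannot be told apart from a change in RNA per cell.

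**Figure D2:**
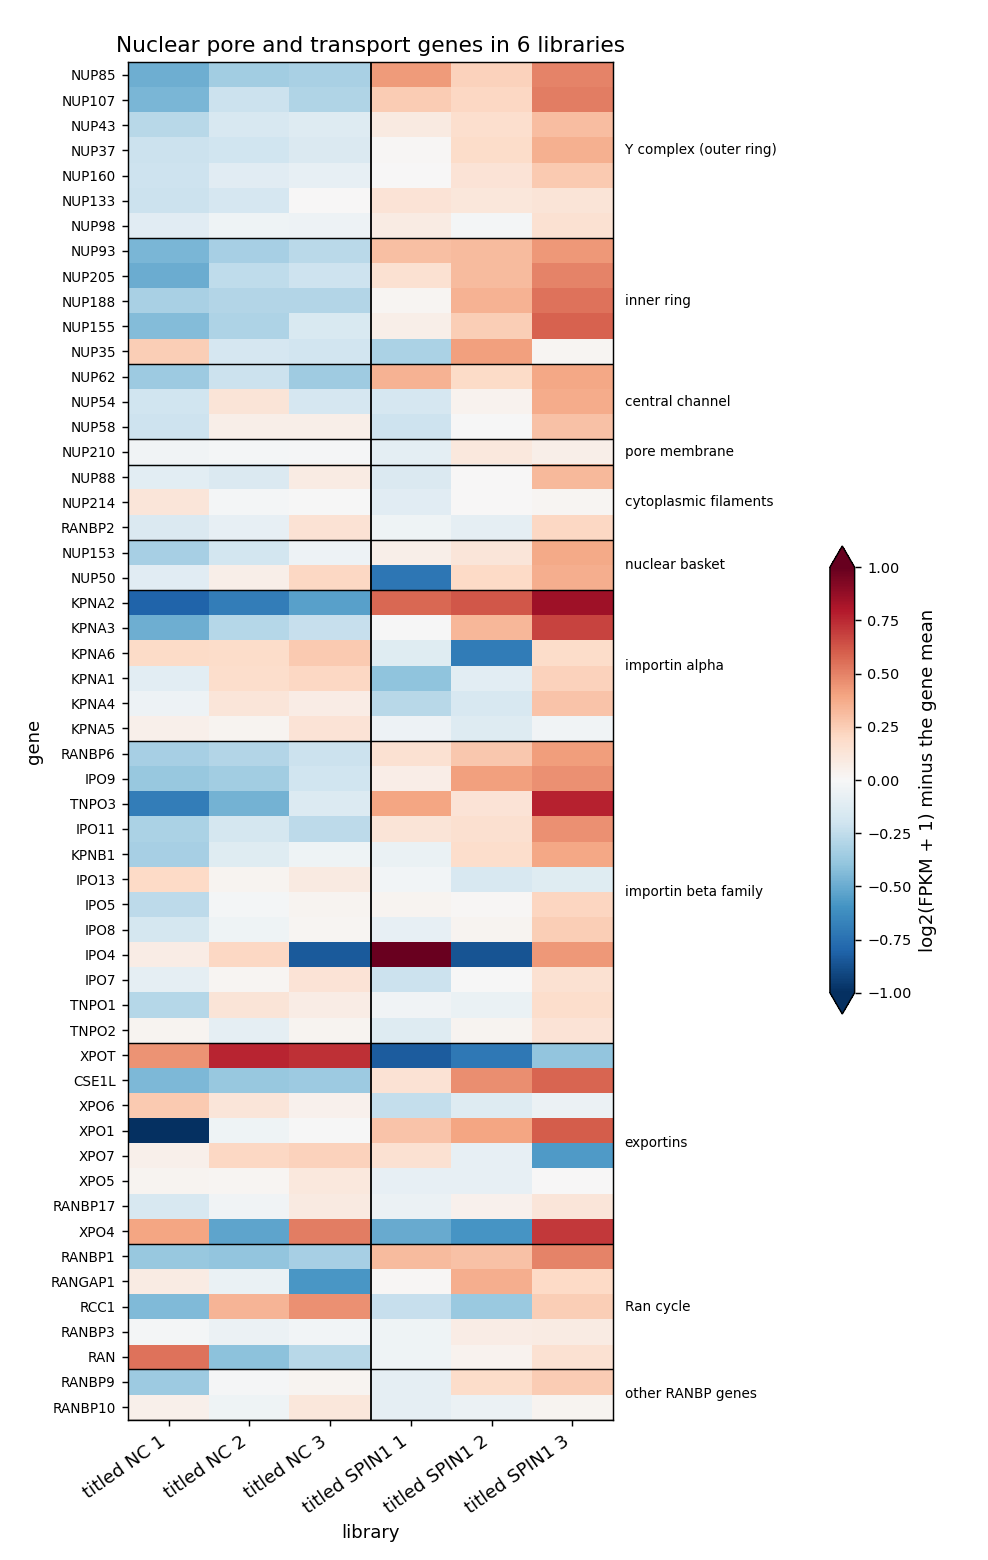
log2(FPKM + 1) of each of the 54 genes in each of the 6 libraries, minus the gene's mean over the libraries, by role; colours saturate at 1 unit. The Y complex and inner ring are mostly blue in the libraries titled NC and red in those titled SPIN1, XPOT shows the opposite, and titled SPIN1 replicate 3 is the reddest column.

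The upstream sequences of genes named above are shown because promoters of cell cycle genes often carry a CCAAT box and a CHR element and those of ATF4 targets a CARE element. They were chosen after their values and motif matches were seen: the importin alpha gene with the largest change, the 2 exportin genes that were called, and 2 nucleoporin genes that share a long motif. Each is the 250 bases before the RefSeq start on GRCh38.p14, 5′ to 3′ on the gene's strand, with motif matches in capitals. The positions are chr17:68035485-68035734 (KPNA2, plus strand), chr20:49046062-49046311 (CSE1L, plus), chr12:64404142-64404391 (XPOT, plus), chr12:68686728-68686977 (NUP107, plus) and chr19:49929505-49929754 (NUP62, minus).
KPNA2: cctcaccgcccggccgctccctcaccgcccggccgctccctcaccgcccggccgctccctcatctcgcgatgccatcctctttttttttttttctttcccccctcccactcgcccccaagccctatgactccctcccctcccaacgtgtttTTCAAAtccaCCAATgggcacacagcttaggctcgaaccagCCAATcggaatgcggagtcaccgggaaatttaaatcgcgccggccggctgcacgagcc
CSE1L: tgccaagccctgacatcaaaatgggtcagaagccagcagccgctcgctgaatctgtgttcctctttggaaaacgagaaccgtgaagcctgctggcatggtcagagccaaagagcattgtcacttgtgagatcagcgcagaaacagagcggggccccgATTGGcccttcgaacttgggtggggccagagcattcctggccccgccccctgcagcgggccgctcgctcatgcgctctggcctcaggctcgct
XPOT: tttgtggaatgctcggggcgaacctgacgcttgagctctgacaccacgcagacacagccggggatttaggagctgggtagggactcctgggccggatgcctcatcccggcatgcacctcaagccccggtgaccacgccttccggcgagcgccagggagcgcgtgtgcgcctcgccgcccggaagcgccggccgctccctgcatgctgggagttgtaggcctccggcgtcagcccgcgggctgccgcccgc
NUP107: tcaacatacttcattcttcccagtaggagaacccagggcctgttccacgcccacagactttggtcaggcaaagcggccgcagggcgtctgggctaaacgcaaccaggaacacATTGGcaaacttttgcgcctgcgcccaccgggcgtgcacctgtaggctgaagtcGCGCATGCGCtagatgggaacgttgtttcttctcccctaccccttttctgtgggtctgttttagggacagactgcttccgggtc
NUP62: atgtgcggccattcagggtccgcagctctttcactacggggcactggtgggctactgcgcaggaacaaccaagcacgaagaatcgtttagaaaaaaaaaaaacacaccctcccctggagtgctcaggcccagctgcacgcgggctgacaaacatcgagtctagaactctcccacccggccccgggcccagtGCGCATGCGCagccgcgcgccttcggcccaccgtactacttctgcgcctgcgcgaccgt

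The motifs searched on both strands were CCAAT, the CHR element TTTGAA, the E2F sites TTTGGCGC, TTTCCCGC and TTTCGCGC, the palindromic NRF1 site (by name; its capitals can be read in NUP62) and the CARE element TGATGNAA. KPNA2 held the CHR element on the opposite strand, at -99 to -94, and CCAAT at -89 to -85 and -58 to -54, counted from the start. CSE1L held 1 CCAAT box, on the opposite strand, and XPOT none of these letters. NUP107 and NUP62 both held the NRF1 site, at -84 to -75 and -59 to -50. NUP107 also held CCAAT on the opposite strand, at -138 to -134. Promoters were listed for 48 of the 54 members and for 27305 genes in all. A gene with several listed starts was counted once, if any start had the motif. CCAAT was found in 41.7% of these members and 37.0% of all genes, the CHR element in 20.8% and 16.1%, E2F sites in 4.17% and 2.85%, the CARE element in 2.08% and 3.89%, and the NRF1 site in 8.33% (4 members: NUP107, NUP62, NUP50 and RANBP3) and 1.28%. Of the 14 listed members called higher, 7 held CCAAT, 4 the CHR element, 2 the NRF1 site and 1 an E2F site, and of the other 34, 13, 6, 2 and 1 did. The 27305 genes were not limited to the 11314 protein-coding genes from which the members come, so the 2 shares have unlike backgrounds. A match is a description of letters only.

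In the Y complex, which builds the outer rings, all 7 members under the naming rule had groups that did not overlap, with the libraries titled SPIN1 above. Of these, 3 were called higher. Over all genes tested, 27.2% were so placed and 17.3% were called higher. The partners SEC13, SEH1L and AHCTF1, outside the naming rule, overlapped between the groups and did not pass. NUP85, on a short arm of the Y, was at 6.43, 7.199 and 7.32 FPKM in the titled NC libraries, replicates 1 to 3, and at 12.97, 11.2 and 13.7 in those titled SPIN1. The groups lay well apart (chr17:73201754-73231853 on hg19, plus strand; log2 difference 0.77, SE 0.11, limma adjusted p = 0.00404). NUP107, in the stem of the Y, was at a low 0.968, 1.33 and 1.19 against 2.21, 2.11 and 2.86 FPKM, a 2.06-fold higher mean (limma adjusted p = 0.0114). NUP43, a propeller protein attached to the Y, was at 4.57, 5.06 and 5.20 against 6.20, 6.58 and 7.39 FPKM. Its call (log2 difference 0.38, limma adjusted p = 0.0399) depended on the libraries: leaving out any but titled SPIN1 replicate 1 ended it.

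The other 4 members of the Y complex did not pass. NUP37, which binds the NUP160 arm, was at 5.49, 5.59 and 5.82 against 6.62, 7.59 and 8.65 FPKM (log2 difference 0.37, 95% interval 0.10 to 0.65, limma adjusted p = 0.0541). It was past the threshold without titled SPIN1 replicate 1 (adjusted p = 0.0233), and with weights per library (adjusted p = 0.00490). NUP160, which forms the other short arm, stood at 9.41, 10.1 and 10.4 against 11.05, 12.3 and 13.4 FPKM (limma adjusted p = 0.101). NUP133, at the foot of the stem, was at 3.66, 3.80 and 4.43 against 4.93, 4.86 and 4.92 FPKM, where the 3 libraries titled SPIN1 lay almost on one value (limma adjusted p = 0.112). NUP98, whose precursor is cut into a channel nucleoporin and the stem protein Nup96, had the smallest difference of the complex: 8.92, 9.41 and 9.35 against 10.4, 9.60 and 10.9 FPKM (log2 difference 0.14, 95% interval -0.08 to 0.36, limma adjusted p = 0.293). Summed over the 7 genes, the Y complex stood at 41.9 ± 2.18 FPKM in libraries titled NC and 56.8 ± 4.37 in those titled SPIN1.

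The inner ring, which anchors the channel nucleoporins, had 4 of its 5 members called higher, by similar folds of the mean FPKM. The share called higher over all genes tested was 17.3%. NUP93, the linker of the inner ring (chr16:56764017-56884198 on hg19, plus strand), had levels of 4.43, 4.92 and 5.18 FPKM in the titled NC libraries and at 8.19, 8.27 and 9.05 in those titled SPIN1. The replicates lay close together and the groups apart (1.76-fold, log2 difference 0.70, SE 0.10, limma adjusted p = 0.00407). NUP205, a large scaffold protein, was at 2.62, 3.28 and 3.42 against 4.68, 5.36 and 6.23 FPKM (1.75-fold, limma adjusted p = 0.0156), a call lost without titled SPIN1 replicate 2 (adjusted p = 0.0516). Its paralog NUP188 stood at 2.67, 2.76 and 2.76 against 3.65, 4.86 and 5.70 FPKM (1.74-fold, limma adjusted p = 0.0257). NUP155, which links the ring to the membrane, was at 3.69, 4.13 and 4.72 against 5.63, 6.52 and 8.56 FPKM (1.65-fold, limma adjusted p = 0.0346). For NUP188 and NUP155 the libraries titled SPIN1 were more spread out than those titled NC. Both calls held in 1 of the 6 fits without 1 library, the fit without titled SPIN1 replicate 1, with adjusted p up to 0.0801 and 0.0987. NUP35, the membrane-binding member of the ring, overlapped between the groups at 6.70, 4.78 and 4.68 against 4.21, 7.604 and 5.58 FPKM (log2 difference 0.07, 95% interval -0.44 to 0.58, limma adjusted p = 0.822).

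In the central channel, NUP62 was called and its partners NUP54 and NUP58 were not. NUP62 had the highest level of the nucleoporins, at 21.6, 24.1 and 21.7 FPKM in the titled NC libraries and 35.9, 32.2 and 37.1 in those titled SPIN1 (1.56-fold, log2 difference 0.62, SE 0.10, limma adjusted p = 0.00517). Its locus overlaps that of ATF5 on the other strand by 1062 bases, and no source used here says whether strand was used in counting. NUP54, which forms a trimer with NUP62 and NUP58, was at 5.14, 6.71 and 5.27 against 5.26, 6.21 and 8.11 FPKM, and NUP58 at 3.69, 4.64 and 4.63 against 3.69, 4.40 and 5.63 FPKM. Both overlapped (limma adjusted p = 0.529 and 0.812).

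None of the 6 members of the pore membrane, cytoplasmic filaments and nuclear basket passed the threshold. NUP210, a transmembrane nucleoporin, was at 17.9, 18.1 and 18.2 FPKM in the titled NC libraries and 17.1, 19.9 and 19.2 in those titled SPIN1, and the 95% interval of its log2 difference ran from -0.17 to 0.26 (limma adjusted p = 0.741). On the filaments, RANBP2, a large Ran-binding SUMO ligase, was at 3.42, 3.62 and 4.39 against 3.74, 3.59 and 4.62 FPKM (log2 difference 0.05, 95% interval -0.26 to 0.37, limma adjusted p = 0.796). Its near-identical copies of the RGPD family can share reads with it, so its level is uncertain. NUP214, which docks messenger RNA export factors, was at 4.05, 3.58 and 3.64 against 3.30, 3.67 and 3.71 FPKM, and its partner NUP88 at 5.40, 5.24 and 6.29 against 5.23, 5.91 and 7.62 FPKM. Both had overlapping groups (limma adjusted p = 0.689 and 0.594). In the basket, NUP153 was at 5.36, 6.05 and 6.70 against 7.33, 7.70 and 9.39 FPKM, with no overlap (log2 difference 0.38, 95% interval 0.07 to 0.68, limma adjusted p = 0.0725). NUP50, which helps to release cargo from importin alpha, was at 5.32, 6.13 and 6.89 against 3.13, 6.85 and 7.81 FPKM. Titled SPIN1 replicate 1 was the lowest of all 6 libraries, and the log2 difference of -0.10 became 0.23 without it (limma adjusted p = 0.814 and 0.241).

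Importin alpha proteins read the classical nuclear localization signal and hand the cargo to importin beta. KPNA2 (chr17:66031635-66042958 on the plus strand of hg19) stood at 32.8, 35.6 and 39.5 FPKM in the titled NC libraries and at 87.1, 89.7 and 105 in those titled SPIN1. Every library titled SPIN1 was above 80 FPKM and none titled NC reached 40 (log2 difference 1.36, SE 0.11, limma adjusted p = 0.000713). KPNA3 was at 6.82, 7.98 and 8.32 against 9.96, 12.8 and 16.5 FPKM (1.70-fold, limma adjusted p = 0.0353), and leaving out any but titled SPIN1 replicate 1 ended its call (adjusted p up to 0.0999). The remaining importin alpha genes tested had lower means in the libraries titled SPIN1 and did not pass. KPNA6 was at 15.2, 15.2 and 16.1 against 12.1, 7.77 and 15.1 FPKM, without overlap but with a wide spread in the libraries titled SPIN1 (log2 difference -0.43, 95% interval -0.94 to 0.09, limma adjusted p = 0.190). The difference was -0.18 without titled SPIN1 replicate 2 (adjusted p = 0.372), and with weights per library it passed at -0.76 (adjusted p = 0.0129). The weights favoured that same replicate 2, the lowest library. KPNA1 stood at 4.19, 5.30 and 5.44 against 3.24, 4.21 and 5.54 FPKM and KPNA4 at 7.88, 8.97 and 8.67 against 6.57, 7.22 and 10.2 FPKM. The groups of both overlapped (limma adjusted p = 0.495 and 0.682).

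Because FPKM is per length, the levels of the importin alpha genes can be set beside each other. In summed FPKM of the 6 genes, KPNA2 took 48.6%, 48.4% and 50.3% in the libraries titled NC and 72.97%, 73.5% and 68.7% in those titled SPIN1. The groups did not overlap, and the mean share was 22.6 percentage points higher (two-sided exact permutation p = 0.1, the smallest that 3 against 3 libraries allow; adjusted p = 0.1 over the 3 shares tested). A share within a family is the same under any scaling of whole libraries. The 3 genes so tested, KPNA2, CSE1L and RANBP1, were chosen with earlier results of these data known. Their own FPKM already did not overlap between the groups, so the p-values of the shares add no separate support. KPNA6, second in level in the libraries titled NC, went from a share of 21.2% ± 1.18 to 8.80% ± 2.10. That of KPNA3 moved little, at 10.5% ± 0.380 and 9.88% ± 1.34 (SD, n = 3 each). Because the sum includes KPNA2, a rise of KPNA2 lowers the shares of the others. KPNA6 itself was at 15.5 ± 0.482 FPKM in libraries titled NC and 11.7 ± 3.70 in those titled SPIN1, and did not pass. In the libraries titled SPIN1 the mean of KPNA3 lay above that of KPNA6, but their ranges overlapped. The summed FPKM of the family was 73.2 ± 5.58 in libraries titled NC and 131 ± 18.6 in those titled SPIN1. Of this, KPNA2 made up 36.0 ± 3.37 and 93.9 ± 9.71.

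**Figure D3:**
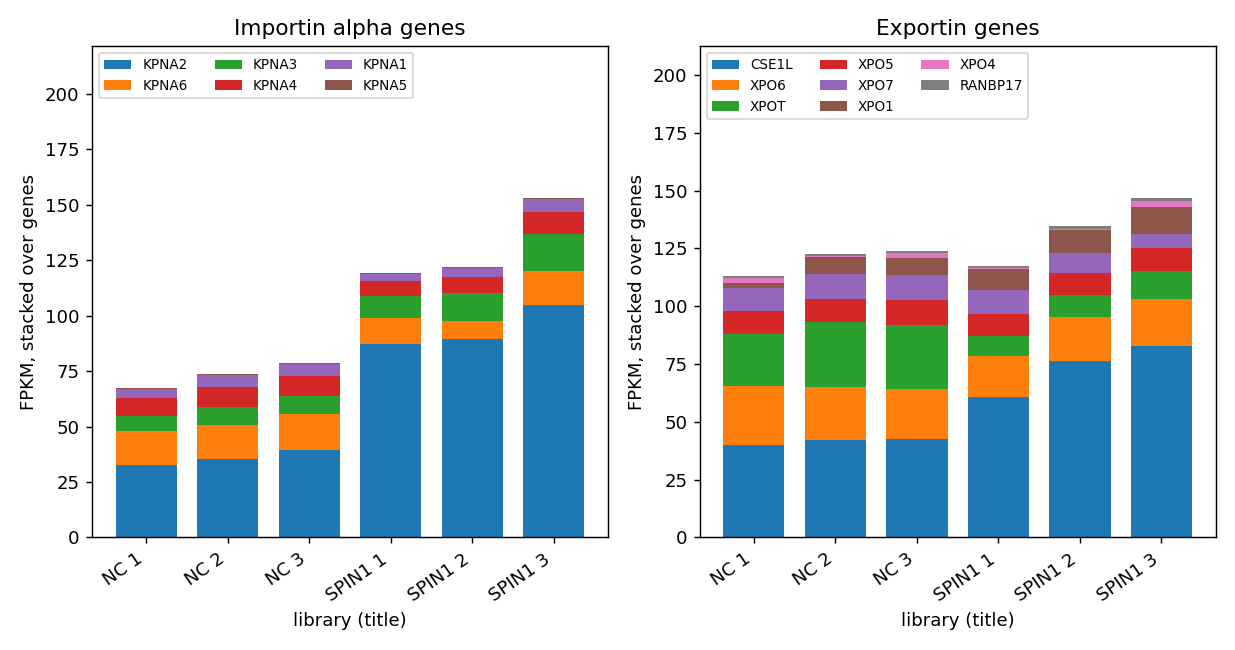
FPKM of the importin alpha genes (left) and exportin genes (right), stacked within each library, with the 3 libraries titled NC first. KPNA2 takes 48.4% to 50.3% of its family in the libraries titled NC and 68.7% to 73.5% in those titled SPIN1, while among exportins the CSE1L segment is larger and the XPOT segment smaller in the libraries titled SPIN1.

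Of the 12 members of the importin beta family, 4 were called higher and 0 lower, against 17.3% and 10.3% of all genes tested. RANBP6, a close relative of the histone importer IPO5, was the lowest of them in level, at 0.644, 0.689 and 0.778 FPKM in the titled NC libraries and 1.30, 1.49 and 1.76 in those titled SPIN1. The groups stood apart, and the mean FPKM was 2.16-fold higher (log2 difference 0.56, SE 0.10, limma adjusted p = 0.00881). IPO9, an importer of histones, was at 4.99, 5.13 and 5.78 against 7.18, 9.35 and 9.71 FPKM (limma adjusted p = 0.0163), a call lost in 3 of the 6 fits without 1 library. TNPO3, which carries splicing factors of the SR family into the nucleus, was at 3.62, 4.38 and 5.79 against 8.80, 7.19 and 11.8 FPKM (2.01-fold, limma adjusted p = 0.0236), a call lost in 4 of the 6 fits. IPO11 was at 1.83, 2.12 and 1.94 against 2.86, 2.94 and 3.85 FPKM (1.64-fold, limma adjusted p = 0.0265), lost in 5 of the 6. Its locus overlaps that of KIF2A on the same strand by 133278 bases, so the split of reads is uncertain.

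KPNB1, importin beta 1 and the partner of importin alpha, was the most abundant of this family. It stood at 36.5, 42.3 and 44.7 FPKM in the titled NC libraries and at 44.1, 52.2 and 60.5 in those titled SPIN1, so titled SPIN1 replicate 1 lay just under titled NC replicate 3. The log2 difference was 0.33 (SE 0.14, 95% interval -0.00 to 0.66, limma adjusted p = 0.126), and without titled SPIN1 replicate 1 it passed (0.44, adjusted p = 0.0442). IPO13, which also exports cargo, was at 11.97, 10.5 and 11.001 against 10.1, 9.11 and 9.37 FPKM, without overlap (log2 difference -0.21, limma adjusted p = 0.151). IPO5 was at 5.71, 6.94 and 7.17 against 7.21, 7.09 and 8.34 FPKM, with a slight overlap of the groups (limma adjusted p = 0.337). IPO7, which carries ribosomal proteins and histones, had means of 18.6 ± 1.56 FPKM in libraries titled NC and 18.1 ± 2.44 in those titled SPIN1, and IPO8 of 1.56 ± 0.176 and 1.81 ± 0.329 FPKM. The transportins TNPO1 and TNPO2, importers of RNA-binding proteins, stood at 12.3 ± 1.96 and 12.7 ± 1.26 FPKM and at 11.4 ± 0.544 and 11.6 ± 1.18 FPKM, each with libraries titled NC first. The groups of these 4 genes overlapped (limma adjusted p from 0.464 for IPO8 to 0.876 for TNPO2).

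IPO4, an importer of histones and ribosomal proteins, was scattered within both groups, at 6.91, 7.68 and 3.21 FPKM in the titled NC libraries and 13.9, 3.12 and 9.13 in those titled SPIN1. Its spread within groups was wider than that of 98.1% of tested genes, and the log2 difference of 0.37 had a 95% interval of -0.86 to 1.60 (limma adjusted p = 0.631). AL136295.4, listed on the same strand across 8570 bases of the IPO4 locus and looked up after the values were seen, was at 7.12, 3.74 and 10.6 against 3.39, 13.1 and 6.95 FPKM. Where one was high in its group, the other was low. The sum of both was 14.0, 11.4 and 13.8 FPKM in the titled NC libraries and 17.3, 16.2 and 16.1 in those titled SPIN1. The sums did not overlap although each gene alone did. This sum was formed after the values were seen and was not tested, and 27.2% of all tested genes had groups so placed.

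The exportins held the called decrease. XPOT (chr12:64798130-64844907 on hg19, plus strand), which takes mature transfer RNAs out of the nucleus, was at 22.4, 28.1 and 27.5 FPKM in the titled NC libraries and 8.63, 9.46 and 12.1 in those titled SPIN1. The highest library titled SPIN1 stood far under the lowest titled NC (log2 difference -1.29, SE 0.15, limma adjusted p = 0.00195). CSE1L (chr20:47662783-47713497, same build and strand) stood at 40.1, 42.1 and 42.5 against 60.8, 76.3 and 83.0 FPKM, with the libraries titled NC close together and those titled SPIN1 spread out above them (log2 difference 0.79, SE 0.13, limma adjusted p = 0.00567). Among the 8 exportin genes CSE1L took 35.5%, 34.3% and 34.3% of the summed FPKM in the titled NC libraries and 51.8%, 56.7% and 56.6% in those titled SPIN1 (two-sided exact permutation p = 0.1, adjusted p = 0.1). The share of XPOT went from 21.6% ± 1.60 to 7.54% ± 0.620 (SD, n = 3 each). Both genes are in the sum, so a rise of CSE1L lowers the share of XPOT and a fall of XPOT raises that of CSE1L.

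XPO1, the main exporter of proteins with leucine-rich export signals, was at 2.502, 7.06 and 7.26 FPKM in the titled NC libraries and 9.11, 9.91 and 11.6 in those titled SPIN1. The groups did not overlap, but titled NC replicate 1 lay far under the rest, and the log2 difference of 0.86 did not pass (SE 0.34, limma adjusted p = 0.109). Without that library it was 0.45 (adjusted p = 0.0624), and without both libraries numbered 1 it was 0.52 (adjusted p = 0.0357). XPO6, the exporter of actin, was at 25.4, 22.9 and 21.7 against 17.7, 19.2 and 20.2 FPKM, without overlap (log2 difference -0.28, 95% interval -0.52 to -0.04, limma adjusted p = 0.0795). It passed after median scaling (adjusted p = 0.0421), under quantile normalization (0.0293) and when libraries were weighted (0.0202). XPO5, the exporter of microRNA precursors, was at 10.2, 10.1 and 10.8 against 9.39, 9.35 and 10.0 FPKM, a small difference without overlap (log2 difference -0.10, limma adjusted p = 0.418). XPO7 was at 9.55, 10.8 and 10.96 against 10.4, 8.65 and 5.87 FPKM, where titled SPIN1 replicate 3 was the lowest library (limma adjusted p = 0.246). XPO4, at 1.87, 0.509 and 2.11 against 0.537, 0.450 and 2.56 FPKM, had high and low libraries in both groups (limma adjusted p = 0.693). RANBP17, a relative of XPO7, was low at 1.05 ± 0.179 FPKM in libraries titled NC and 1.152 ± 0.136 in those titled SPIN1 (limma adjusted p = 0.653).

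In the Ran cycle, RANBP1 was called and RAN, RCC1, RANGAP1 and RANBP3 were not. RANBP1 (chr22:20103461-20114880 on the plus strand of hg19) stood at 17.3, 17.2 and 18.0 FPKM in the titled NC libraries and at 28.7, 28.2 and 32.7 in those titled SPIN1. Both groups were tight and far apart (1.71-fold, log2 difference 0.74, SE 0.09, limma adjusted p = 0.00254). Its share of the summed FPKM of the 5 genes was 23.2%, 26.0% and 27.7% against 37.0%, 34.3% and 35.9% (two-sided exact permutation p = 0.1, adjusted p = 0.1). Its locus overlaps that of TRMT2A on the other strand by 1455 bases.

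RAN, the GTPase itself, was at 26.0, 12.96 and 14.3 FPKM in the titled NC libraries and 17.0, 18.0 and 19.6 in those titled SPIN1. Titled NC replicate 1 was the highest of the 6 and the other two libraries titled NC were the lowest (log2 difference 0.10, 95% interval -0.50 to 0.70, limma adjusted p = 0.802). Without that library the difference was 0.39 (adjusted p = 0.0572), and without both libraries numbered 1 it was 0.44 (adjusted p = 0.0382). RCC1, the exchange factor, was at 7.996, 14.5 and 15.8 against 9.38, 8.43 and 13.5 FPKM, and here titled NC replicate 1 was the lowest of the 6 (log2 difference -0.24, limma adjusted p = 0.560). RANGAP1, the GTPase activator, was at 16.1, 14.4 and 9.81 against 15.3, 19.8 and 17.6 FPKM, with overlap (log2 difference 0.38, 95% interval -0.07 to 0.84, limma adjusted p = 0.184). With weights per library both passed, RCC1 at -0.58 (adjusted p = 0.0433) and RANGAP1 at 0.50 (adjusted p = 0.0343). RANBP3, a cofactor of export by XPO1, was at 7.19, 6.97 and 7.14 against 7.06, 7.78 and 7.79 FPKM (limma adjusted p = 0.576).

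RANBP9 and RANBP10, scaffold proteins of a ubiquitin ligase that share the prefix but are no transport receptors, did not pass. RANBP9 was at 15.9, 20.6 and 21.2 FPKM in the titled NC libraries and 19.4, 23.8 and 24.99 in those titled SPIN1 (limma adjusted p = 0.286). RANBP10 was at 5.87, 5.42 and 6.14 against 5.24, 5.35 and 5.75 FPKM (limma adjusted p = 0.586).

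**Figure D4:**
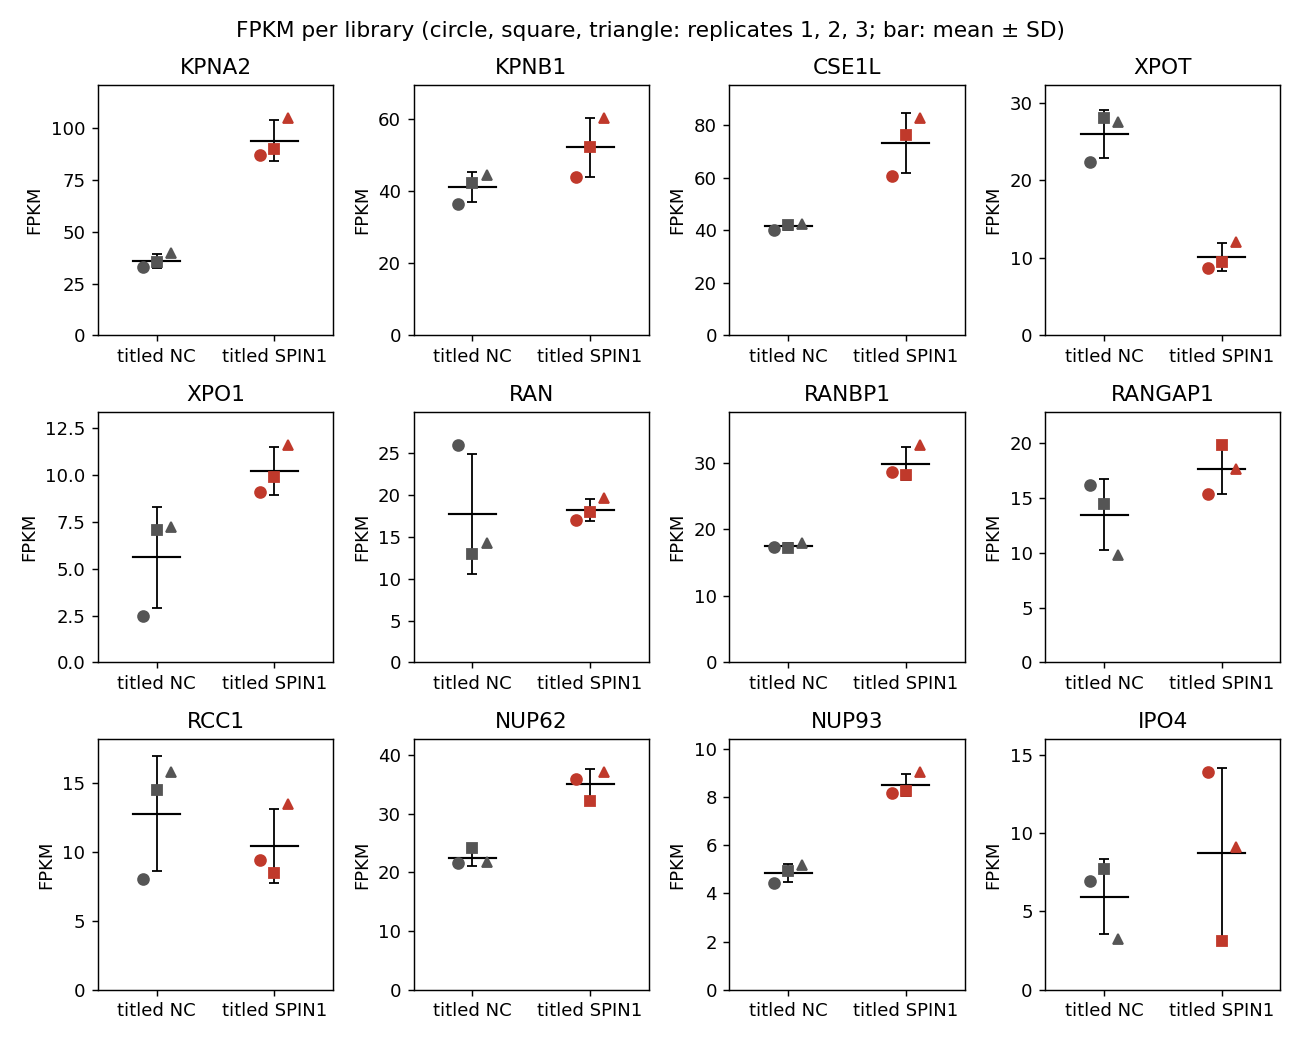
FPKM of 12 genes in each library (circle, square and triangle for replicates 1, 2 and 3), with the mean and SD of each group; every axis starts at 0. KPNA2, CSE1L, RANBP1, NUP62 and NUP93 separate upward and XPOT downward, titled NC replicate 1 stands apart for XPO1 (2.502) and RAN (26.0), and IPO4 is scattered in both groups.

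Other genes of the pathway were counted from lists by function. Of 11 further pore subunits 2 were higher (18.2%) and 0 lower, with a median log2 difference of 0.01. Over all genes tested, 17.3% were higher and 10.3% lower, so the share called higher was near that of all genes. GLE1, which activates the export helicase at the cytoplasmic face, was at 12.5 ± 1.205 FPKM in libraries titled SPIN1 and 7.79 ± 0.932 in those titled NC (SD, n = 3 each; limma adjusted p = 0.0119), and the transmembrane nucleoporin NDC1 at 5.82 ± 1.54 and 2.93 ± 0.539 FPKM (adjusted p = 0.0271). NDC1 was called in 1 of the 6 fits without 1 library. The transmembrane POM121 and POM121C, close copies that can share reads, did not pass (log2 differences -0.23 and -0.28, limma adjusted p = 0.204 and 0.0669). Y complex partners outside the naming rule, SEC13, SEH1L and AHCTF1, differed by 0.09, 0.02 and -0.14 on the log2 scale (limma adjusted p from 0.569 to 0.922).

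Of 21 other transport factors 1 was higher (4.76%) and 2 lower (9.52%), against 17.3% and 10.3% of all genes tested. Their median log2 difference was -0.05. NXF1, the main exporter of messenger RNA, was at 7.87 ± 0.429 FPKM in libraries titled SPIN1 and 10.3 ± 0.946 in those titled NC (limma adjusted p = 0.0468), and the export helicase DDX19A, a close copy of DDX19B, was higher at 8.49 ± 0.692 and 5.83 ± 1.05 FPKM (adjusted p = 0.0457). Both calls were lost in all 6 fits without 1 library. RGPD1 was at 0.220 ± 0.367 FPKM in libraries titled SPIN1 and 1.05 ± 0.0481 in those titled NC (adjusted p = 0.0269) and RGPD2 at 0.907 ± 0.0433 and 1.30 ± 0.0818 (adjusted p = 0.0507). In the libraries titled SPIN1, RGPD1 was at 0.0170 and 0.644 FPKM in replicates 1 and 2 and listed at 0 in replicate 3. RGPD1 had a mean of at least 0.5 FPKM only in the libraries titled NC. It was thus listed and tested through the group where it was high, and its call, 1 of the 2 lower, gives no support. Its call held in 1 of the 6 fits without 1 library and was lost with either smaller pseudocount and with weights (adjusted p up to 0.151). Both are near-identical to parts of RANBP2 and to each other, so the split between them is uncertain.

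Among 21 genes of messenger RNA export, 6 were higher (28.6%) and 0 lower, against 17.3% and 10.3% of all genes tested. Their median log2 difference was -0.03. ALYREF, the adaptor that loads NXF1 onto messenger RNA, was at 96.04 ± 7.09 FPKM in libraries titled SPIN1 and 42.7 ± 0.896 in those titled NC (limma adjusted p = 0.000629). THOC3, of the THO complex, was at 17.3 ± 2.99 and 7.69 ± 0.0707 FPKM, the helicase DDX39A at 64.1 ± 2.62 and 39.2 ± 4.76 FPKM, and CETN2, a centrin that also serves the centrosome, at 22.6 ± 3.32 and 14.6 ± 1.16 FPKM. DDX39B, the close paralog of DDX39A, had the opposite sign and did not pass (log2 difference -0.46, limma adjusted p = 0.0816). The call of CETN2 was lost without titled NC replicate 2, titled SPIN1 replicate 2 or titled SPIN1 replicate 3 (adjusted p up to 0.0696). The other higher genes were ENY2 and SEM1, each called in 1 of the 6 fits without 1 library.

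Of 17 genes of the lamina and nuclear envelope 4 were higher (23.5%) and 0 lower, against 17.3% and 10.3% of all genes tested. Their median log2 difference was 0.12. The B-type lamin LMNB1 was at 8.46 ± 2.81 FPKM in libraries titled SPIN1 and 1.07 ± 0.180 in those titled NC (limma adjusted p = 0.00111), and LMNB2 at 14.4 ± 2.21 and 4.51 ± 0.468 FPKM (adjusted p = 0.000966). LMNA, which encodes the A-type lamins, was at 27.7 ± 1.98 and 16.9 ± 1.41 FPKM (adjusted p = 0.00477). TMPO, which encodes the lamina-associated LAP2 proteins, was at 24.0 ± 6.47 and 12.8 ± 1.52 FPKM (adjusted p = 0.0252) and was called in 1 of the 6 fits without 1 library.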

How the data were processed

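Messenger RNA was measured in 6 libraries. Per the submitters' processing notes, the tools were FastQC, cutadapt, HISAT2 and StringTie (no versions given) and the build was hg19, and the libraries were strand-specific, per the labels' protocols. The authors deposited 1 FPKM value for each gene and library, as the file headers name it. A change in a few abundant genes moves all others on this scale, and mitochondrially encoded genes took 32.2% to 38.4% of a library's summed FPKM. No listed gene had both group means under 0.5003 FPKM. Low values showed no steps of whole reads (at most 4 of 12 to 35 log2 ratios within 0.02), so depth is unknown and precision rests on the spread between 3 libraries.

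Tested genes averaged 0.5 FPKM or more (253 left out) with limma 3.58.1 (trend, robust, statmod 1.5.0) in R 4.3.3 on log2(FPKM + 1), with a threshold of 0.05 after Benjamini-Hochberg adjustment. A log2 difference on this scale understates changes at low FPKM, and a fold is a ratio of mean FPKM. Shares within families were compared over all 20 divisions of the libraries. All members were named, with values in every library for up to 5 per role and fixed core genes, and for further members where a sentence rests on them; other lists give up to 4 genes of smallest adjusted p, and genes beyond these were chosen after their values were seen. Members, lists and tests were chosen with earlier results of these data known. The code was tested on simulated data. Alternatives changed pseudocount, filter, scaling, moderation, weights, the replicate block and the libraries included. Figures used matplotlib 3.10.9 in Python 3.11.15.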

Additional observations from a re-analysis of the deposited data

How the results depend on the processing

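Of 896 values of single members under an alternative, 793 kept sign and side of the threshold. The 16 higher members became 9 to 18 with 1 library left out (9 without titled NC replicate 1, NC replicate 2 or SPIN1 replicate 2, 10 without SPIN1 replicate 3), and the 1 lower became 2 after median scaling or quantile normalization and 5 with weights per library, where 11 more members were called (IPO13, KPNA6, KPNB1, NUP133, NUP153, NUP160, NUP35, NUP37, RANGAP1, RCC1 and XPO6). The weighted fit rested mainly on replicate 2 of each group. NUP160, KPNB1 and NUP37 also passed without titled SPIN1 replicate 1. After rescaling nuclear genes to one sum, KPNA3, NUP155 and NUP43 lost their calls. All-gene calls (1914 higher, 1139 lower) became 3106 and 2304 with weights per library, and 1139 to 2042 and 635 to 1267 with 1 library left out. SPIN1 passed with weights per library (-1.87) and without titled NC replicate 1 (-2.03), and ran from -2.03 to -0.65 with 1 library left out. ALKBH3 was 0.059 without both libraries numbered 1. Causes were not tested.

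Further pore subunits: 1 to 2 higher with 1 library left out, and 1 lower after median scaling or quantile normalization and 2 with weights. Other transport factors: 0 higher after any of the 3 rescalings and without both libraries numbered 1, 2 with weights and 0 to 1 with 1 library left out. Their 2 lower became 4 after any of the 3 rescalings or with weights, 1 with a pseudocount of 0.1 or 0.01, a mean of at least 2 FPKM or the replicate block, 0 without both libraries numbered 1, and 0 to 1 with 1 library left out. Messenger RNA export: 3 to 6 higher and 0 to 2 lower with 1 library left out, 1 lower after median scaling, quantile normalization or without both libraries numbered 1, and 5 with weights. Lamina: 3 lower with weights.

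Signs of members not past the threshold turned. After median scaling the differences were NUP58 -0.0040, NUP210 -0.026, RANBP2 -0.0074, TNPO1 -0.017 and TNPO2 -0.044. After quantile normalization the differences were NUP58 -0.012, NUP210 -0.025, RANBP2 -0.0044, TNPO1 -0.014, TNPO2 -0.044 and RANBP17 -0.025. After rescaling of nuclear genes the differences were NUP210 -0.0028 and TNPO2 -0.021. With weights per library the differences were NUP58 -0.015, NUP214 0.0024, RANBP2 -0.018, NUP50 0.073, IPO4 -0.52 and TNPO1 -0.11. Without both libraries numbered 1 the differences were NUP214 0.025, NUP50 0.15, TNPO1 -0.045 and XPO4 0.068. With 1 library left out the ranges were -0.033 to 0.89 (IPO4), -0.14 to 0.050 (IPO7), -0.27 to 0.014 (KPNA4), -0.11 to 0.25 (NUP35), -0.31 to 0.23 (NUP50), -0.075 to 0.18 (NUP58), -0.015 to 0.22 (NUP88), -0.085 to 0.39 (RAN), -0.037 to 0.14 (RANBP2), -0.075 to 0.13 (TNPO1) and -0.038 to 0.10 (TNPO2).

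Deviations of same-numbered libraries correlated at 0.22, 0.06 and 0.15, and those of unlike-numbered libraries at -0.21 to 0.08. These values do not settle whether the numbers pair the libraries, and the main fit did not pair them. With the replicate block 19 members were higher (KPNB1, NUP153 and NUP37 added) and 1 lower, and all-gene calls were 2048 and 1251.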
